A study of Sus scrofa with 4 samples.

Results

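The tumour necrosis factor (TNF) superfamily ligands and receptors were followed in sorted lung cells of pigs that carry a knock-in reporter for LGR5. Members were taken by gene name: names of the TNFSF and TNFRSF series, plus TNF, LTA, LTBR, FAS, FASLG, CD40, CD70 and EDAR, leaving out TNFRSF19, TNFRSF13B, TNFRSF13C and TNFRSF17. This gave 28 genes of the 29263 in the count tables, 14 ligands and 14 receptors. Of these, 25 carry their name in the tables, and FAS, TNFRSF11B and TNFRSF18 are listed there by an Ensembl identifier and were named through a gene name table. LTB, EDA2R and TNFSF10 were not analysed here. All 4 libraries come from lung of LGR5-H2B-GFP knock-in pigs, in which a green fluorescent histone fusion reports the R-spondin receptor gene LGR5. Cells were sorted into a bright fraction, GFP-HI (2 libraries), and a fraction without fluorescence, GFP-NEG (2 libraries), numbered as biological replicates 1 and 2. The GFP-NEG cells carry the same knock-in, and no library from pigs without it was analysed here. A histone fusion protein is long-lived, so fluorescence can outlast transcription of the reporter. Antibodies to EPCAM and NGFR are named for sorting, with no statement of which gate each library had. Age and sex are not given in the sources used here, the stated protocol covers adult and fetal lung, and the name of the deposited comparison table contains the words adult pig.

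Ligands of this family are mostly trimers held on the surface of immune cells or released from it, and their receptors sit on immune, stromal, epithelial and endothelial cells. Some receptors carry a death domain and can start apoptosis, while others recruit TRAF adaptors and activate NF-kB. In lung, TNF is a main cytokine of macrophages in inflammation, the co-stimulatory pairs act between T cells and the cells that present antigen, and stromal cells respond through receptors such as LTBR and TNFRSF1A.

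The GFP-HI libraries held 24200550 and 24689986 counts and the GFP-NEG libraries 6292253 and 7045652 counts, so depth and group cannot be told apart. More genes had a count in the shallower GFP-NEG libraries (24120 and 25985) than in the GFP-HI libraries (18752 and 18392). The reason was not tested. Levels are given as CPM, counts divided by a library size that is adjusted by the trimmed mean of M-values (TMM). LGR5 itself stood at 146 and 152 CPM in GFP-HI and at 1.55 and 0.767 CPM in GFP-NEG. With 2 libraries in each group, p-values draw only on the spread between these libraries, pooled in part across genes. In bulk RNA, fewer cells of a type and less RNA per cell cannot be told apart. The fibroblast markers (9 genes, among them PDGFRA, DCN and LUM) summed to 83839.7 and 72734 CPM in GFP-HI and to 25871 and 9083 CPM in GFP-NEG. Most of this sum came from the collagen genes COL1A1, COL1A2 and COL3A1, none of which passed the threshold given below. The T and NK cell markers (12 genes) summed to 134 and 255 CPM in GFP-HI and to 1019 and 1795 CPM in GFP-NEG. B and plasma cell markers (9 genes) summed to 126 and 297 CPM against 928 and 1577 CPM. Macrophage and monocyte markers (10 genes) summed to 568 and 494 CPM against 2199.6 and 922 CPM, neutrophil markers (5 genes) to 185 and 167 CPM against 1908 and 797 CPM, and endothelial markers (8 genes) to 194 and 193 CPM against 1385 and 579 CPM. Epithelial markers (10 genes) summed to 369 and 361 CPM in GFP-HI and to 801 and 199 CPM in GFP-NEG, and smooth muscle markers (7 genes) to 1738 and 2450 CPM against 2543 and 382 CPM, so both sums overlapped between groups. Of single markers, 8 of 9 B and plasma cell genes and 4 of 5 neutrophil genes fell, beside 27.6% of all tested genes. So did 2 of 10 epithelial genes and 2 of 7 smooth muscle genes. In addition 1 smooth muscle gene rose, beside 8.35% of all tested genes. None of the markers in these lists was at 0 counts in any library, GFP-HI included. The mesothelial markers WT1 and CALB2 had few counts in both groups. WT1 had 0 and 2 counts in GFP-HI against 0 and 24 in GFP-NEG, and CALB2 had 0 and 0 against 2 and 5. Every immune and endothelial sum was lower in both GFP-HI libraries than in either GFP-NEG library, in the direction that most family members moved, and their part in the results below was not tested.

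**Figure D1:**
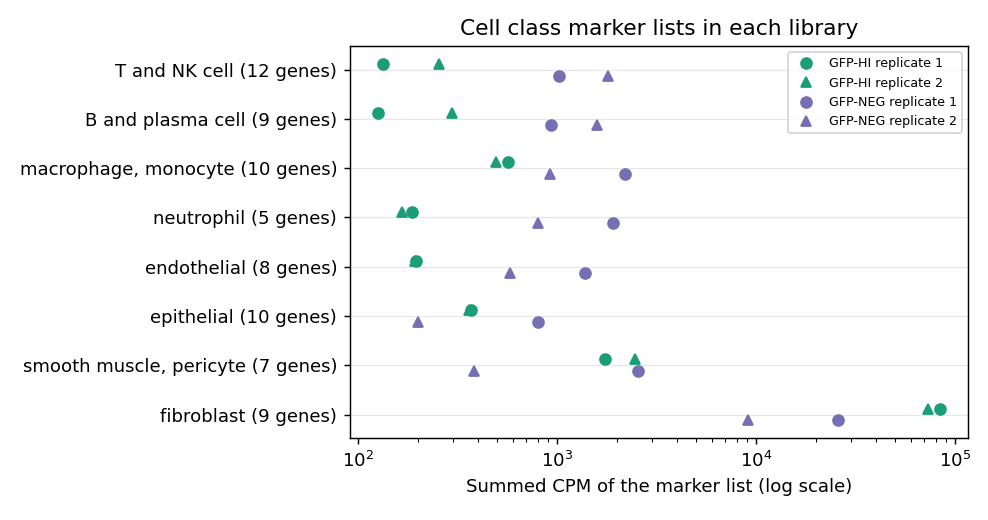
Summed CPM (log axis) of 8 cell class marker lists in each of the 4 libraries, with circles for replicate 1 and triangles for replicate 2. The fibroblast sum is highest in GFP-HI (83839.7 and 72734 CPM), and the T and NK, B and plasma, macrophage, neutrophil and endothelial sums are higher in both GFP-NEG libraries.

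Most of the family was lower in LGR5-reporter-bright cells. Of the 28 members, 27 had enough counts to be tested, 16 fell in GFP-HI, 1 rose, and 10 did not pass the threshold, an adjusted p under 0.05 in edgeR's quasi-likelihood test across all 19682 tested genes. Over all tested genes, 27.6% were lower and 8.35% were higher by the same rule. The single member that rose was TNFSF15, the ligand of the death receptor TNFRSF25. The 16 that fell were the ligands TNF, LTA, TNFSF14, FASLG, TNFSF8, TNFSF9, CD70, TNFSF11 and TNFSF13B and the receptors TNFRSF1B, FAS, TNFRSF25, TNFRSF4, TNFRSF9, TNFRSF18 and TNFRSF11A. The median log2 fold change of the tested members was -2.41, against -0.25 over all tested genes. Among the ligands 9 of 14 fell and 1 rose, and among the receptors 7 of 13 tested fell. No receptor rose in edgeR at the adjusted threshold, 0 had an unadjusted p under 0.05 in that direction, and DESeq2 also gave 0.

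Levels in the 2 libraries of each group did not overlap for 22 of the 28 members, 19 of them lower and 3 higher in GFP-HI. By that measure 42% of all tested genes were lower and 27.7% higher. The 6 members with overlapping groups were CD40, EDAR, LTBR, TNFRSF1A, TNFRSF12A and TNFSF13. The calls depended most on GFP-NEG replicate 2: without it 6 members were lower (6.98% of all tested genes were), and 10 lost their call, with adjusted p-values from 0.052 to 0.38. TNF, FASLG, TNFSF8, TNFSF9, TNFRSF1B and TNFRSF18 were the 6 that passed in that fit, in which the lone GFP-NEG library is assumed to vary like the GFP-HI pair. The number lower was 13 without GFP-HI replicate 1 (23.8% of all tested genes), 11 without GFP-HI replicate 2 (21.7%) and 12 without GFP-NEG replicate 1 (20.5%).

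**Figure D2:**
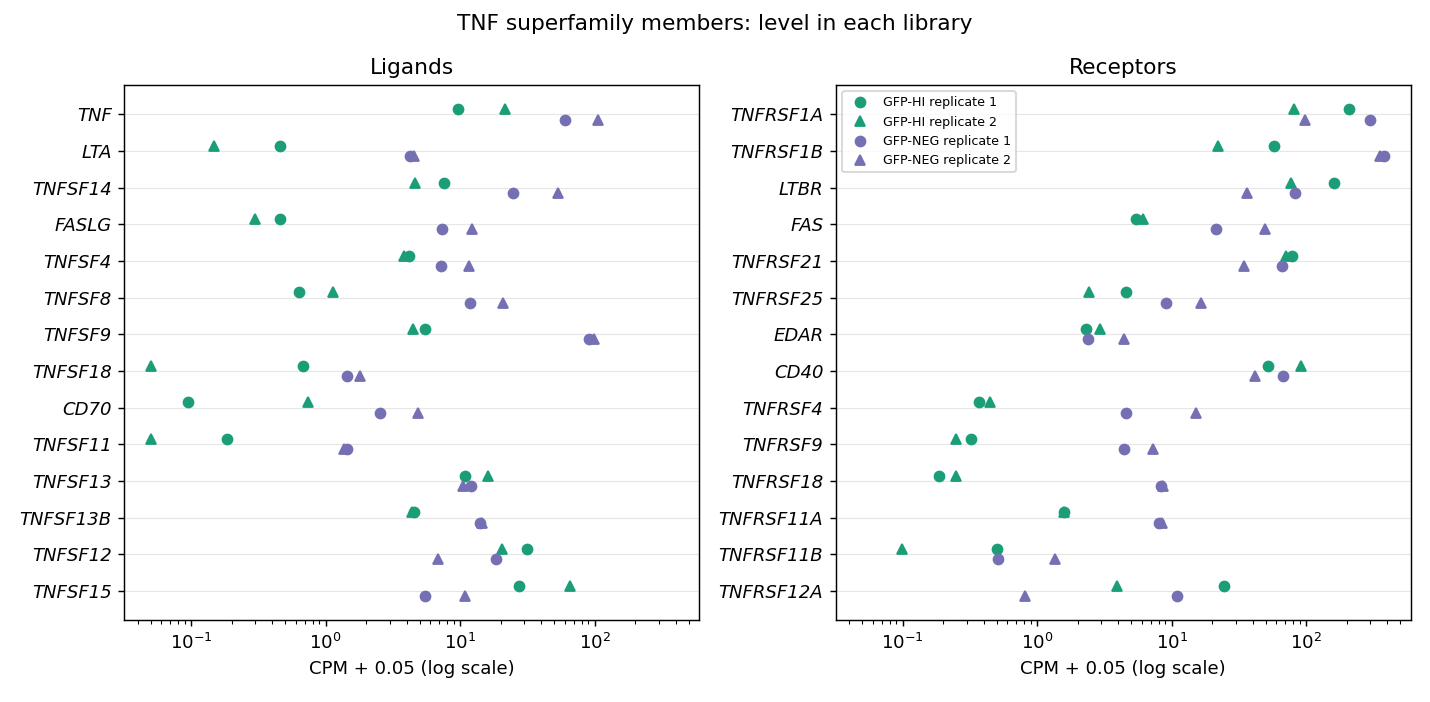
Level of each member in the 4 libraries as CPM + 0.05 on a log axis, ligands on the left and receptors on the right, with circles for replicate 1 and triangles for replicate 2. Both GFP-NEG points lie to the right of both GFP-HI points for 19 members, and to the left for TNFSF15, TNFSF12 and TNFRSF21.

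TNF and its relatives LTA and TNFSF14 all fell, while of their 3 receptors here only TNFRSF1B passed the test, and it fell as well. TNF, the founding inflammatory cytokine of the family, was at 9.65 and 21.7 CPM in GFP-HI and at 60.4 and 106 CPM in GFP-NEG. Every GFP-NEG library was above every GFP-HI library, by 5.30-fold in the fit (log2 fold change -2.41 ± 0.54, SE; adjusted p of 1.1e-04). The fitted value was -1.86 without GFP-HI replicate 1 and -3.06 without GFP-HI replicate 2, and the adjusted p was 0.027 and 0.0068. LTA, lymphotoxin alpha, which binds the same receptors, was at 0.408 and 0.0991 CPM in GFP-HI and at 4.19 and 4.49 CPM in GFP-NEG. The GFP-HI values rest on 9 and 2 counts (log2 fold change -4.04 ± 1.31, adjusted p of 0.0081), and the call was lost without GFP-HI replicate 2 (-3.35, adjusted p of 0.12) and without GFP-NEG replicate 2 (-3.997, adjusted p of 0.081). Its value was -5.24 without GFP-HI replicate 1. TNFSF14, a T cell ligand that signals through LTBR, was at 7.57 and 4.61 CPM in GFP-HI against 24.8 and 53.7 CPM in GFP-NEG (-2.69 ± 0.58, adjusted p of 6.2e-05). GFP-NEG replicate 2 held more than GFP-NEG replicate 1, and without it the value was -2.03 with an adjusted p of 0.052.

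TNFRSF1B, the second TNF receptor, which is found mainly on leukocytes and endothelium, was at 57.9 and 22.0 CPM in GFP-HI and at 382 and 352 CPM in GFP-NEG. The groups were far apart, and the log2 fold change was -3.20 ± 0.67 (adjusted p of 4.1e-05), with -3.99 without GFP-HI replicate 1 and -2.63 without GFP-HI replicate 2. TNFRSF1A, the widely expressed first TNF receptor with a death domain, was at 209 and 80.8 CPM in GFP-HI and at 299 and 98.4 CPM in GFP-NEG. Here the replicates of each group differed more than the groups did, and replicate 1 was the higher library in both. The difference of -0.45 ± 0.60 did not pass (adjusted p of 0.60), and leaving out GFP-NEG replicate 1 turned it to 0.56 and leaving out GFP-HI replicate 2 to 0.092. LTBR, the lymphotoxin beta receptor of stromal cells, was at 161 and 76.9 CPM against 82.3 and 36.4 CPM. It too was higher in replicate 1 of both groups, the groups overlapped, and its log2 fold change of 1.01 ± 0.55 did not pass (adjusted p of 0.14). It ranged from 0.43 without GFP-HI replicate 1 to 1.71 without GFP-NEG replicate 1, and passed in neither. The direction was the same within both replicate numbers for LTBR, with differences in log2(CPM + 0.5) of 0.97 and 1.07.

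The death ligand FASLG and its receptor FAS both fell. FASLG, which cytotoxic T and NK cells use to kill, was at 0.408 and 0.248 CPM in GFP-HI, from 9 and 5 counts, and at 7.30 and 12.2 CPM in GFP-NEG, from 47 and 111 counts. The groups were fully apart, and the fitted log2 difference was -4.85 ± 1.05 (adjusted p of 6.8e-05). T and NK cell markers moved the same way, as 11 of the 12 fell with a median of -3.49, beside 27.6% of all tested genes. FAS, which most cell types can carry, was at 5.35 and 6.10 CPM in GFP-HI and at 21.3 and 49.4 CPM in GFP-NEG (-2.63 ± 0.59, adjusted p of 1.1e-04). Its level in GFP-HI was nearly equal in both libraries, while GFP-NEG replicate 2 was 2.32 times GFP-NEG replicate 1. Without GFP-NEG replicate 2 the value was -1.89 with an adjusted p of 0.085.

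Of the other receptors with a death domain, TNFRSF25 fell and TNFRSF21 and EDAR did not pass the test. TNFRSF25, carried by T cells and bound by the ligand TNFSF15, was at 4.53 and 2.38 CPM in GFP-HI and at 9.01 and 16.4 CPM in GFP-NEG (-1.88 ± 0.75, adjusted p of 0.036). This call was lost without GFP-HI replicate 1 (-2.34, adjusted p of 0.066), without GFP-HI replicate 2 (-1.45, 0.24) and without GFP-NEG replicate 2 (-1.38, 0.32), and also after GFP-HI was thinned to the depth of GFP-NEG (adjusted p of 0.061, when 21.6% of all tested genes were lower). TNFRSF21, known for roles in T helper cells and neurons, was at 78.3 and 71.5 CPM in GFP-HI against 65.7 and 34.6 CPM in GFP-NEG, with the groups apart but a log2 fold change of only 0.58 ± 0.52 (adjusted p of 0.41). It was 1.11 without GFP-NEG replicate 1 and 0.19 without GFP-NEG replicate 2. EDAR, the ectodysplasin receptor of hair, tooth and gland development, was between 2.27 and 4.39 CPM in all 4 libraries, and its groups overlapped (-0.39 ± 1.06, adjusted p of 0.81).

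Of the 9 co-stimulatory ligands and receptors, 6 fell, beside 27.6% of all tested genes. TNFSF9, a ligand on antigen-presenting cells, was at 5.48 and 4.41 CPM in GFP-HI and at 91.3 and 98.3 CPM in GFP-NEG. Replicates agreed closely within each group, and the fall was 19.1-fold (log2 fold change -4.26 ± 0.59, adjusted p of 1.7e-10), the smallest adjusted p of the family. Leaving out single libraries moved it only between -4.35 and -4.08. Its receptor TNFRSF9, which activated T and NK cells put on their surface, was at 0.272 and 0.198 CPM against 4.35 and 7.24 CPM (-4.57 ± 1.26, adjusted p of 0.0014), from 6 and 4 counts in GFP-HI. Without GFP-NEG replicate 2 the receptor lost its call (-4.16, adjusted p of 0.063).

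TNFSF8, the ligand of CD30 on activated T and B cells, was at 0.589 and 1.09 CPM in GFP-HI and at 11.8 and 20.8 CPM in GFP-NEG. The log2 fold change was -4.27 ± 0.82 (adjusted p of 7.2e-06), and it kept its call in all 12 alternatives. CD70, the ligand of CD27 on activated lymphocytes, was at 0.0453 and 0.694 CPM in GFP-HI, from 1 and 14 counts, and at 2.48 and 4.82 CPM in GFP-NEG. Its GFP-HI libraries therefore differed 15.3-fold, and the log2 fold change of -3.29 ± 1.29 (adjusted p of 0.032) became -6.02 without GFP-HI replicate 2 and -2.31 without GFP-HI replicate 1 (adjusted p of 0.24). CD70 also lost its call without GFP-NEG replicate 1 (-3.69, 0.059) and without GFP-NEG replicate 2 (-2.73, 0.37). The other co-stimulatory ligands, TNFSF4 and TNFSF18, had both GFP-HI values under both GFP-NEG values but did not pass, with log2 fold changes of -1.24 ± 0.79 and -2.27 ± 1.24 (adjusted p of 0.22 and 0.15). The TNFSF18 value rests on 14 and 0 counts against 9 and 16, and among the alternatives it passed only without GFP-HI replicate 1, when the remaining GFP-HI library was at 0 (adjusted p of 0.012).

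TNFRSF18 and TNFRSF4, receptors of regulatory and activated T cells, both fell. TNFRSF18 was at 0.136 and 0.198 CPM in GFP-HI, from 3 and 4 counts, and at 8.23 and 8.66 CPM in GFP-NEG, from 53 and 79 counts. The fitted fall was 48.3-fold (-5.59 ± 1.18, adjusted p of 4.6e-05), a size that rests on these few GFP-HI counts, and with GFP-HI thinned to the depth of GFP-NEG the value was -4.38 (adjusted p of 0.0018). TNFRSF4 was at 0.317 and 0.397 CPM in GFP-HI against 4.503 and 15.0 CPM in GFP-NEG (-4.75 ± 1.04, adjusted p of 8.2e-05). GFP-NEG replicate 2 held 3.34 times the level of GFP-NEG replicate 1, and without it the value was -3.63 (adjusted p of 0.090), while without GFP-NEG replicate 1 it was -5.37. With GFP-HI thinned to the depth of GFP-NEG it was -5.84. T and NK marker sums were also higher in GFP-NEG replicate 2 than in replicate 1, by a ratio of 1.76.

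CD40, the receptor by which B cells, macrophages and also fibroblasts receive help from T cells, did not follow the other co-stimulatory receptors. It was at 51.8 and 90.9 CPM in GFP-HI and at 67.2 and 41.9 CPM in GFP-NEG. The groups overlapped, the difference was 0.39 ± 0.52 (adjusted p of 0.60), and its sign was opposite within the 2 replicate numbers (-0.37 and 1.11 in log2(CPM + 0.5)). With plain library-size scaling the fitted value was -0.025, and without GFP-HI replicate 2 it was -0.048.

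**Figure D3:**
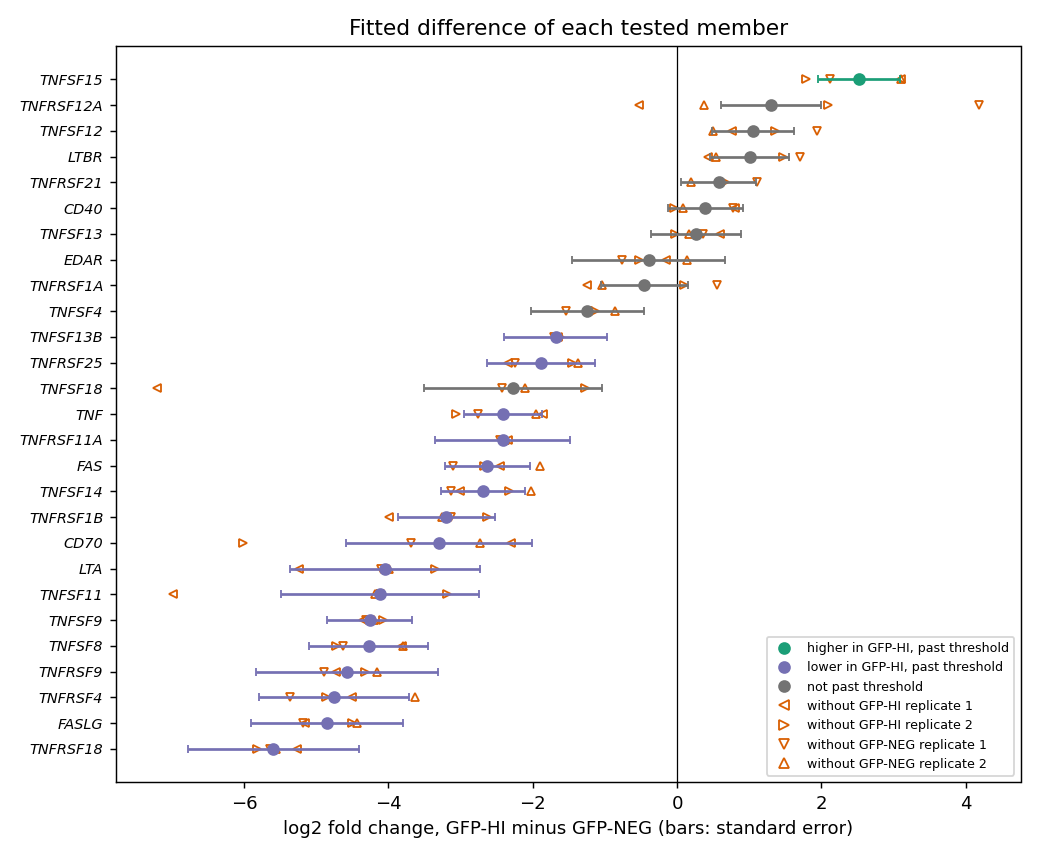
Fitted log2 fold change of GFP-HI minus GFP-NEG for the 27 tested members (filled points, bars are 1 standard error), with open triangles for the fits that leave out 1 library. TNFSF15 lies at 2.52 and is the only filled point past the threshold on the right, and TNFRSF12A has the widest spread among members with a positive value, from -0.53 to 4.19.

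Of the ligands that act on B cells, TNFSF13B fell by a call that did not outlast the loss of any library, and TNFSF13 did not pass; the difference between them was not tested. TNFSF13B, the B cell survival factor BAFF made mainly by myeloid and stromal cells, was at 4.53 and 4.31 CPM in GFP-HI and at 13.97 and 14.5 CPM in GFP-NEG. Replicates were close in both groups, yet the log2 fold change of -1.68 ± 0.71 only just passed (adjusted p of 0.049) and lost its call in each of the 4 fits without 1 library (-1.65, -1.61, -1.71 and -1.66 without GFP-HI replicate 1, GFP-HI replicate 2, GFP-NEG replicate 1 and GFP-NEG replicate 2). TNFSF13, the related plasma cell factor APRIL, was at 10.8 and 16.1 CPM against 12.0 and 10.5 CPM. Its groups overlapped (0.26 ± 0.62, adjusted p of 0.79), and the sign turned to -0.063 when libraries were scaled by the upper quartile, to -0.18 with totals as the only scaling and to -0.028 without GFP-HI replicate 2. The receptors of these ligands lie outside the gene name rule. TNFRSF13C, the BAFF receptor of B cells, fell (0.725 and 2.03 CPM against 9.63 and 13.2 CPM, log2 fold change -3.04, adjusted p of 0.0018; -2.41 and 0.070 without GFP-HI replicate 1, and -3.92 without GFP-HI replicate 2), while TNFRSF13B and TNFRSF17 were at -2.59 and -1.62 and did not pass (adjusted p of 0.055 and 0.18). TNFRSF13B passed with the replicate number as a block (-3.63, adjusted p of 0.036), without GFP-HI replicate 1 (-8.96, adjusted p of 0.012) and with thinned GFP-HI counts (-3.12, adjusted p of 0.036). With thinned counts TNFRSF13C was at -3.69.

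Of the bone-remodelling members, TNFSF11 and its receptor TNFRSF11A fell, both at low levels. TNFSF11, the osteoclast factor RANKL that lymphocytes and some stromal cells also make, was at 0.136 and 0 CPM in GFP-HI, from 3 and 0 counts, and at 1.40 and 1.32 CPM in GFP-NEG, from 9 and 12 counts. The log2 fold change of -4.12 ± 1.374 (adjusted p of 0.010) lost its call with the replicate number as a block (adjusted p of 0.10), under DESeq2 (0.0999), with no filter (0.0999), and without GFP-HI replicate 2 (-3.19, 0.066), GFP-NEG replicate 1 (-4.11, 0.28) or GFP-NEG replicate 2 (-4.19, 0.38). With GFP-HI replicate 2 as the only GFP-HI library, which was at 0, the fitted value was -6.99. TNFRSF11A was at 1.54 CPM in both GFP-HI libraries and at 8.07 and 8.44 CPM in GFP-NEG (-2.42 ± 0.93, adjusted p of 0.029). The value stayed between -2.45 and -2.35 without single libraries, but its adjusted p was then 0.12, 0.13, 0.067 and 0.10 without GFP-HI replicate 1, GFP-HI replicate 2, GFP-NEG replicate 1 and GFP-NEG replicate 2. The decoy receptor TNFRSF11B had between 1 and 12 counts in each library and was not tested.

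TNFSF15 rose, and the TWEAK pair TNFSF12 and TNFRSF12A leaned the same way without passing. TNFSF15 (TL1A), known from endothelial and myeloid cells as a T cell co-stimulator, was at 27.2 and 66.1 CPM in GFP-HI and at 5.43 and 10.7 CPM in GFP-NEG. The raw counts were 601 and 1334 against 35 and 98, both GFP-HI libraries were above both GFP-NEG libraries, and the rise was 5.73-fold (log2 fold change 2.52 ± 0.56, adjusted p of 1.1e-04). Leaving out GFP-HI replicate 2 gave 1.79 with an adjusted p of 0.051, and leaving out either GFP-HI replicate 1 or GFP-NEG replicate 2 gave 3.10. The rise was present within both replicate numbers, by 2.22 and 2.57 in log2(CPM + 0.5). Endothelial markers went the other way, with all 8 tested lower in GFP-HI at a median of -2.27. So did macrophage markers, with 6 of 10 lower, while 27.6% of all tested genes were lower. Fibroblast markers were higher in GFP-HI as TNFSF15 was, with 6 of 9 higher at a median of 2.49, beside 8.35% of all tested genes. Within each group, though, TNFSF15 was higher in replicate 2, while the fibroblast sum was higher in replicate 1. In GFP-NEG the ratio of replicate 2 to replicate 1 was 1.98 for TNFSF15 and 0.351 for that sum. The part of any of these markers in the rise of TNFSF15 was not tested.

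TNFSF12, the ligand TWEAK, was at 31.6 and 20.4 CPM in GFP-HI against 18.3 and 6.80 CPM in GFP-NEG. The groups were apart by a small margin, and the log2 fold change of 1.06 ± 0.57 did not pass (adjusted p of 0.14). It was 1.94 without GFP-NEG replicate 1 (adjusted p of 0.052) and 0.51 without GFP-NEG replicate 2. TNFRSF12A, its receptor on injured and growing tissue, was named after its values were seen. It was at 24.4 and 3.87 CPM in GFP-HI and at 10.9 and 0.767 CPM in GFP-NEG. Replicate 1 held 6.30 times the level of replicate 2 in GFP-HI and 14.2 times in GFP-NEG, so the groups overlapped although GFP-HI was the higher library within each replicate number. The log2 fold change of 1.30 ± 0.69 did not pass without the block (adjusted p of 0.13) and passed with it (1.64, adjusted p of 0.033). Leaving out GFP-NEG replicate 1 gave 4.19 (adjusted p of 8.3e-04), and leaving out GFP-HI replicate 1 gave -0.53 (adjusted p of 0.79).

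**Figure D4:**
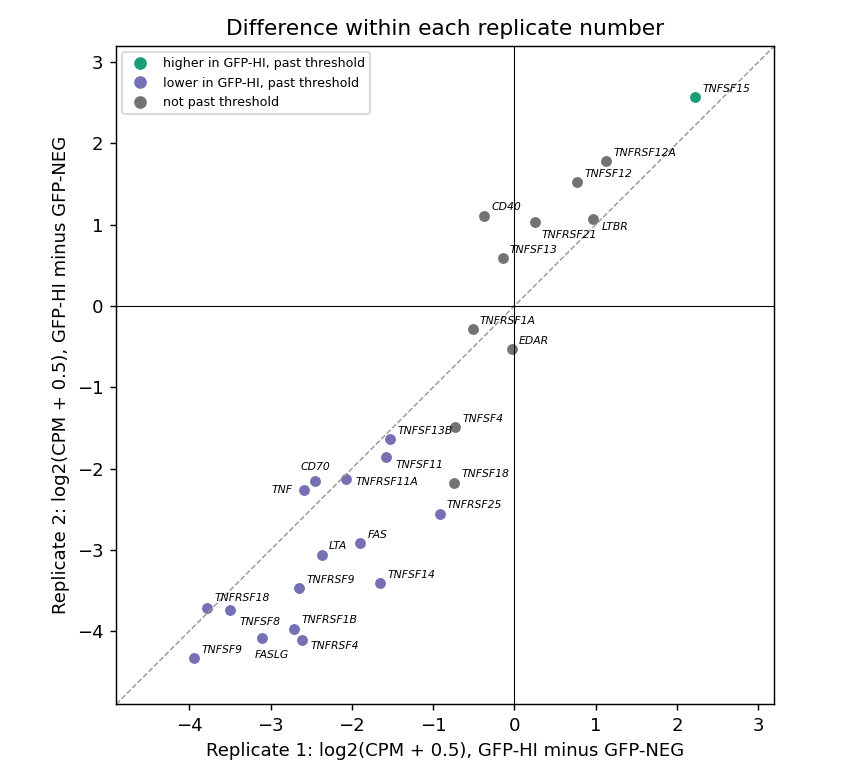
Difference in log2(CPM + 0.5) between GFP-HI and GFP-NEG within replicate 1 (horizontal) and within replicate 2 (vertical) for the 27 tested members, with the dashed line marking equal differences. All 16 members that fell lie in the lower left, which follows from their groups not overlapping. TNFSF15 lies at 2.22 and 2.57, while CD40 and TNFSF13 differ in sign.

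Within both replicate numbers, the difference had the same sign for 26 of the 28 members, 21 lower and 5 higher in GFP-HI. The exceptions were CD40 and TNFSF13. For the 19 lower and 3 higher members whose groups did not overlap, equal signs follow from that alone. Such groups were also found for 42% (lower) and 27.7% (higher) of all tested genes. Among the 16 members that fell, GFP-NEG replicate 2 was above GFP-NEG replicate 1 for 14, TNFRSF1B and TNFSF11 being the others, with ratios of replicate 2 to replicate 1 from 0.920 (TNFRSF1B) to 3.34 (TNFRSF4). Of the 10 tested members that did not pass, 7 were lower in GFP-NEG replicate 2 than in replicate 1, down to a ratio of 0.0706 for TNFRSF12A. Over the marker lists that ratio was 1.76 for T and NK cells and 1.70 for B and plasma cells, and 0.419 for macrophages, 0.418 for neutrophils and endothelium, and 0.351 for fibroblasts. The 2 GFP-NEG libraries thus differed in the family members as well as in their lymphocyte and stromal markers.

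Many of the falls were at levels where genes best known from other tissues were also counted. A list of 37 such genes, such as INS and PRM1, had a median of 0.0906 and 0.0991 CPM in the GFP-HI libraries and of 1.09 and 1.43 CPM in the GFP-NEG libraries. Its 95th percentile was 20.7 and 7.30 CPM in GFP-NEG replicates 1 and 2. Of the 20 such genes that could be tested, 8 fell and 1 rose, beside 27.6% and 8.35% of all tested genes. Their median difference was -1.77 on the log2 scale. The largest falls among them, APOA2 at -9.32 and TAT at -7.02, came with 0 counts in both GFP-HI libraries. These exceeded the -5.59 of TNFRSF18, the largest fall of the family. The riser CYP7A1 was at 1.74. TNFSF11, at 1.40 and 1.32 CPM in GFP-NEG, was near the median of that list. Among the 16 members that fell, TNF, TNFSF14, TNFSF9, TNFRSF1B and FAS were above that percentile in both GFP-NEG libraries, and the other 11 were not, FASLG, LTA, TNFRSF4, TNFRSF9, TNFRSF18 and TNFSF8 among them. TNFSF15 was above the matching limits of 11.9 and 16.2 CPM in both GFP-HI libraries.

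Several members are neighbours in the genome. In the RefSeq gene table (assembly Sscrofa11.1), in which all 28 members were found, TNFSF15 and TNFSF8 follow each other with no protein-coding gene between them, and the first rose while the second fell. LTA and TNF, CD70 and TNFSF9, and TNFRSF18 and TNFRSF4 are also direct neighbours, and both genes of each of these pairs fell. TNFSF12 and TNFSF13 are direct neighbours and neither passed the test. FASLG, which fell, lies next to TNFSF18, which did not pass. Whether the ends of such neighbours overlap was not examined. The strand setting of the counting is not given in the sources used here, so reads from any overlapping ends could not be told apart.

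A list of 10 genes outside the rule held other ligands and receptors of the family and EDARADD, the adaptor of EDAR. Of these 9 were tested, 4 fell and 1 rose, against 27.6% and 8.35% of all tested genes. The riser was TNFRSF19, a Wnt-responsive receptor, at 178 and 180.3 CPM in GFP-HI and at 10.7 and 8.003 CPM in GFP-NEG. RELT, a lymphoid receptor of the family, fell from 81.0 and 42.8 CPM in GFP-NEG to 11.4 and 6.99 CPM in GFP-HI (log2 fold change -2.75, adjusted p of 1.5e-05). The T cell ligand CD40LG fell by 3.21 on the log2 scale and CD27, the receptor of CD70, by 1.45 (adjusted p of 3.7e-04 and 0.019). Without GFP-NEG replicate 2 these were -1.69 and -0.87 and did not pass (adjusted p of 0.35 and 0.49). Neither passed without GFP-HI replicate 1 (-2.37 and -1.49, adjusted p of 0.077 and 0.075), and CD27 lost its call without GFP-HI replicate 2 as well (adjusted p of 0.13). CD40LG was at -4.76 without GFP-HI replicate 2 and at -3.93 without GFP-NEG replicate 1. EDA, the ligand of EDAR, was at 10.1 and 6.84 CPM in GFP-HI against 1.86 and 2.41 CPM in GFP-NEG, with an adjusted p of 0.070 (0.040 with the replicate block, and 0.0496 with no filter).

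Downstream of the receptors, most adaptors did not pass the test, while TRAF1, TRAF5 and BIRC2 were among those that fell and TRAF3IP2 rose. Among 22 tested adaptors and regulators, 4 were lower and 1 higher, with a median of -0.30. TRAF2, TRAF3 and BIRC3 were also on that list but were not found by name, so they were not tested. Over all tested genes 27.6% were lower, 8.35% were higher and the median was -0.25. TRAF1, an adaptor induced by NF-kB, was at 8.20 and 4.71 CPM in GFP-HI against 52.9 and 42.6 CPM in GFP-NEG (-2.89, adjusted p of 1.2e-05), and TRAF5, an adaptor of co-stimulatory receptors, was at -2.93 (adjusted p of 3.5e-04). BIRC2, an inhibitor of apoptosis bound to TRAF adaptors, was at -2.11 (adjusted p of 0.019) and passed in none of the fits without 1 library (0.076 without GFP-HI replicate 1, 0.17 without GFP-HI replicate 2, 0.077 without GFP-NEG replicate 1 and 0.068 without GFP-NEG replicate 2). TRAF3IP2, an adaptor of interleukin 17 receptors, rose from 33.4 and 10.7 CPM to 99.8 and 77.5 CPM (2.01, adjusted p of 9.2e-04), with 1.41 and 0.28 without GFP-NEG replicate 2 and 3.04 without GFP-NEG replicate 1.

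Of 19 NF-kB pathway genes, 7 were lower and the median was -0.65, beside 27.6% and -0.25 over all tested genes. None was higher in edgeR, 0 had an unadjusted p under 0.05 in that direction, and DESeq2 gave 0. IKBKE, an inducible kinase of immune cells, was at 4.89 and 4.21 CPM in GFP-HI against 30.4 and 69.2 CPM (-3.45, adjusted p of 2.3e-07; -2.74 without GFP-NEG replicate 2). REL, the lymphoid NF-kB subunit, was at -2.91 (adjusted p of 6.3e-06) and the inhibitor NFKBIE at -2.68 (adjusted p of 1.4e-04). Genes that TNF is known to induce were split: of 16 tested, 7 fell and 2 rose, beside 27.6% and 8.35% of all tested genes. The lists overlap, as TNFAIP3, TRAF1 and NFKBIA are among these 7 and were also counted as lower adaptors or NF-kB genes. TNFAIP2, BIRC3, SELE, CCL20 and IL1B were not found by name and were not tested. The neutrophil chemokines CXCL2 and CXCL8 fell by 4.54 and 3.69 (adjusted p of 5.2e-09 and 5.9e-07), and CXCL2 was at -3.88 without GFP-NEG replicate 1. TNFAIP6, a hyaluronan-binding protein of stromal cells, was at 75.8 and 168 CPM in GFP-HI against 44.1 and 7.34 CPM in GFP-NEG (2.25, adjusted p of 3.1e-04). CCL2, a monocyte chemokine, was at 239 and 268 CPM against 115 and 17.5 CPM (1.94, adjusted p of 0.0064). Both rises lost their call without GFP-NEG replicate 2 (1.47 and 1.14, adjusted p of 0.27 and 0.46). They also lost it without GFP-HI replicate 2 (1.57 and 1.86, adjusted p of 0.10 and 0.078), and with GFP-NEG replicate 1 left out they were 4.05 and 3.85. None of the 14 death effectors and none of the 6 shedding genes, ADAM17 and ADAM10 among them, passed in edgeR or in DESeq2. At an unadjusted p under 0.05 edgeR gave 0 of the first and 1 of the second. The death effectors BAX and BCL2 were not found by name and were not tested.

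The authors' deposited table of the same comparison lists 26 of the 28 members, all but TNFRSF18 and TNFSF11. By an adjusted p under 0.05 in the authors' deposited table, 14 were lower and 1 was higher, against 11.2% and 8.2% of its 16250 genes. All 15 were called in the same direction here, but from the same counts, so this is no independent support. The 11.2% covers a shorter list of genes. DESeq2 run here called 6024 of 24178 genes lower and 1354 higher, with 15 members lower and 1 higher. On the log2 scale TNFSF15 stands at 2.51 in the authors' deposited table (adjusted p of 0.0013) and TNFSF9 at -4.27 (adjusted p of 4.7e-13).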

How the data were processed

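RNA was measured in 4 libraries, 2 of GFP-HI and 2 of GFP-NEG cells. The deposited values are whole-number counts per gene. The submitters' processing notes name featureCounts, Subread 1.5.2 and DESeq2 1.37.6 with no roles; aligner, genome build and strand setting are not given in the sources used here. The deposited comparison table holds, per the file headers, the same counts, a normalized signal, a log2 fold change, a test statistic (score) and p-values; its signal columns were not used, because under 2 of the headings the scaled counts are those of a different library (4 columns unused).

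Of the Ensembl identifiers, 834 were renamed through a gene name table. Counts were tested with edgeR 4.0.16 (R 4.3.3, TMM, filterByExpr, quasi-likelihood F test, group as the only term, Benjamini-Hochberg over 19682 genes). The procedure was tested on simulated data with a shared dispersion and few changed genes, up or down at random. That setting differs from these data, in which many genes passed and more fell than rose. A standard error is the fold change divided by the square root of F, and dispersion was pooled across genes (common value 0.239). In GFP-NEG 1 count was worth 0.155 and 0.110 CPM, so low values carry wide counting error. Alternatives covered scaling, filters, DESeq2 1.42.0, the replicate block, single libraries left out and thinned GFP-HI counts. The block pairs the libraries by replicate number. The headings of the deposited table give each of 2 pigs a positive and a negative library, although 2 headings are in doubt as above. Same-numbered libraries deviated together only weakly (r of 0.16 across genes). The text gives every member that passed the threshold, those with a mean of at least 10 CPM, and up to 3 genes per direction of each pathway list. CD27, EDA, TNFRSF13B and TNFRSF17, partners of members, were named after their values were seen. The members and lists were chosen with earlier results of these data known. Levels of different genes were not compared, since exon lengths were not used here.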

Additional observations from a re-analysis of the deposited data

How the results depend on the processing

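No called member changed direction in the 12 alternatives, and 6 of the 17 kept their call in all of those that gave a value (TNF, FASLG, TNFSF8, TNFSF9, TNFRSF1B and TNFRSF18). Over 48 single genes, 512 values stayed on their side of the threshold, 44 lost a call, 9 gained one and 9, all of members that had not passed, changed sign. With the replicate block 2 members were higher, TNFRSF12A being added, and TNFSF11 lost its call; TNFRSF13B and EDA gained theirs, and the block changed no other call among the 48 genes. Leaving out single libraries gave 0 to 2 members higher, 6 to 13 lower and a median of -2.45 to -1.95, and 204 to 1539 of all genes higher and 1373 to 4680 lower. The largest loss was without GFP-NEG replicate 2, when 204 genes were higher and 1373 lower. Upper-quartile scaling moved the median of all genes from -0.25 to -0.58 with 1083 genes higher, and scaling by totals alone moved it to -0.68 with 888 higher, against 1643, while members lower stayed at 16; the members' median was then -2.85 with totals alone. Thinned GFP-HI counts gave 3568 genes lower and 14 members lower of 25 tested (21.6% of all genes). Sign changes under another scaling were those of CD40 (-0.025 with totals alone) and TNFSF13 (-0.063 with the upper quartile, -0.18 with totals alone). Without single libraries CD40 ranged from -0.048 to 0.80, TNFSF13 from -0.028 to 0.59, TNFRSF12A from -0.53 to 4.19, TNFRSF1A from -1.24 to 0.56 (0.092 without GFP-HI replicate 2) and EDAR from -0.77 to 0.14. The cause of these shifts was not tested. The count of the 25 members named in the tables alone, an alternative chosen after seeing the data, was 1 higher and 14 lower.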
